A study of Mus musculus with 28 samples.

Results

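The 46 genes described here encode the machinery that copies DNA and the regulators that take a cell from G1 into S phase. They were taken as the rows of the deposited gene table whose Ensembl identifier has one of 46 symbols given by name, and every symbol matched exactly 1 of the 35880 rows. All 46 were among the 14887 genes tested, although Orc1, Dscc1 and Exo1 passed the filter on low counts only through exposed libraries, which leaves 43 that passed in sham libraries alone. Messenger RNA was sequenced from whole-lung homogenates of wild-type male C57BL/6 mice aged 8 to 12 weeks. The mice breathed carbon black (a soot-like particle of nearly pure carbon, 10 mg/m3) with ozone (an oxidant gas, 2 ppm), ozone alone, carbon black alone, or sham air, for 3 hours at a time. Day 4 groups had 4 exposures and hold 3 libraries each, and day 1 groups had 1 exposure and hold 4 libraries each, 28 in all. The day and the number of exposures cannot be told apart, and no source used here gives the interval between the last exposure and lung collection. Nothing in the labels states that the libraries of a group came from separate animals, so p-values reflect the scatter of these libraries, which may be technical.

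Before a cell divides it must copy its genome once. The origin recognition complex, Cdc6 and Cdt1 load the ring of Mcm2 to Mcm7 onto origins in G1, geminin blocks reloading, and cyclin E kinase together with Mcm10, Cdc45 and the GINS complex turns loaded rings into active helicases in S phase. Polymerases, the Pcna clamp and its loader, and the nucleotide-making enzymes then carry out synthesis, and many of these genes are transcribed at the G1/S border by E2F factors once cyclin-dependent kinases have inactivated the retinoblastoma protein. In the adult lung few cells cycle at rest, and oxidant injury of the airway and alveolar lining is known to be followed by division of the remaining epithelial and other cells.

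Each library held 5.14 M to 9.72 M estimated counts, so 3 counts, the most that a value of 0 allows, equal 0.309 to 0.584 CPM. Such limits cover counting error only. Levels are CPM, counts set to the same total in each library with TMM factors, which correct for differences in library composition. Within-group Pearson correlations across genes ran from 0.943 to 0.985. The 6 markers of lung epithelium summed to 34856 CPM or more in every library, with sums by group given below. Among ozone libraries of day 1, replicate 4 had the highest value of its group in 41 of the 46 genes and replicate 1 the lowest in 44, so the counts, medians and main genes of that group are also given below without each of them. In carbon black lungs of day 1, replicate 4 was highest in 31 genes and replicate 3 lowest in 28. In bulk tissue, fewer cells of a type and less RNA per cell cannot be told apart, and neither can more dividing cells and more transcript in each.

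The start sites of these genes hold E2F-type sequences more often than those of other genes, and 4 upstream stretches that carry such letters are shown. Upstream matches of other members, such as Cdc6, are not shown. The mouse RefSeq table (GRCm38.p6, windows of 250 bases before to 50 after a start site) had a window for 36 of the 46 genes. The 8-base sequences TTTCCCGC, TTTGGCGC, TTTCGCGC and TTTGCCGC were searched on both strands, and at least 1 of them lay in 16 of the 36 (44.4%), against 704 of 27025 genes with a window (2.6%). The sequences can overlap each other, as they do in Mcm5 and Mcm6 below. The CCAAT box, searched as CCAAT on both strands, lay in 58.3% of the members and 41.1% of all genes, and the CHR element, searched as TTTGAA, in 13.9% and 20.2%. Each line below gives the 190 bases before the start site, read 5′ to 3′ on the gene's strand, with the matches in capitals. Mcm5 is on the plus strand at chr8:75109319-75109508, Mcm6 on the minus strand at chr1:128359706-128359895, Uhrf1 on the plus strand at chr17:56304123-56304312 and Pola1 on the minus strand at chrX:93632156-93632345. The Uhrf1 stretch lies inside a longer transcript of the same gene that starts further upstream.
Mcm5: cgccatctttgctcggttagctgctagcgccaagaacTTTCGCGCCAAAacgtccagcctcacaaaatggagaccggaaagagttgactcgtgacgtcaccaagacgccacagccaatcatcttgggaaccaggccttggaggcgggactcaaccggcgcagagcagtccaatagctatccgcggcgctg
Mcm6: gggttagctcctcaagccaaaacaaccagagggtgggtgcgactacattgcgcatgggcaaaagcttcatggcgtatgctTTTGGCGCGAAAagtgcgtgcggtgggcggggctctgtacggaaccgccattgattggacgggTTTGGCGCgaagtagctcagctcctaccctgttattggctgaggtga
Uhrf1: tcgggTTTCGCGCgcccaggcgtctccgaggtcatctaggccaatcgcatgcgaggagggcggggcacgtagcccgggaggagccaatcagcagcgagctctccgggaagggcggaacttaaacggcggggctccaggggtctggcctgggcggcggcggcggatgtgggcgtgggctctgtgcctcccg
Pola1: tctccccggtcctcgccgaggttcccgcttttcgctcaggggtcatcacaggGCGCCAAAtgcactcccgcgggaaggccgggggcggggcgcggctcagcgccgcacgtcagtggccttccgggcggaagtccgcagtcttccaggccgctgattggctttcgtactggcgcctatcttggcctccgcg
A match is a description of the letters and not evidence that a factor binds there. E2f2, whose level did not pass the test in any comparison with sham, also holds TTTGGCGC, starting 40 bases after its start site.

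Ozone-containing exposures were accompanied by higher levels of most of these 46 genes, after 1 exposure and after 4. No member was lower past the threshold in any comparison. After 4 exposures, 44 of the 46 genes were higher in co-exposed lungs than in sham lungs, where 34.1% of all tested genes were called in either direction and 17.7% were called higher. The median log2 fold change of the members was 1.69, against 0.00 over all genes. After 4 ozone exposures 41 were higher, against a background of 20.8% called and 11.7% called higher, with a member median of 1.53. After 1 co-exposure 41 were higher, where 19.2% of all genes were called and 10.1% called higher, with a median of 1.10. After 1 ozone exposure 35 were higher, where 11.5% were called and 6.82% called higher, with a median of 1.01. Calls rest on edgeR's quasi-likelihood F test, with Benjamini-Hochberg adjustment over all genes tested and a threshold of 0.05. The same 35 genes were higher in all 4 of these comparisons, which share sham libraries within each day, 45 were higher in at least 1, and E2f2 in none.

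The separation was visible in single libraries. All 3 co-exposed libraries of day 4 lay above all 3 sham libraries in 45 of the 46 genes, where 20.7% of all genes did. All ozone libraries of day 4 did so in 43, against 22.5% of all genes. At day 1, all 4 co-exposed libraries lay above all 4 sham libraries in 40 genes and the 4 ozone libraries did so in 33, each against 12.0% of all genes. Without ozone replicate 4 of day 1, 28 of the 46 genes were past the threshold in that comparison, all of them among the 35, where 6.08% of all genes were called, and the median log2 fold change was 0.86. Without replicate 1 the number was 37, which held all 35, where 9.57% were called, and the median was 1.10. Mcm5 was then at 1.66 without replicate 4 and 2.00 without replicate 1 on the log2 scale. Cdc6 was at 1.62 and 2.36, Pcna at 0.48 and 0.72, Rrm2 at 1.31 and 1.77, and Uhrf1 at 1.99 and 2.48, in the same order, and all 5 passed edgeR's test in both fits. Counting only the 43 genes that passed the filter in sham libraries alone, the numbers higher were 41 for co-exposure and 38 for ozone at day 4, and 38 for co-exposure and 33 for ozone at day 1.

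**Figure D1:**
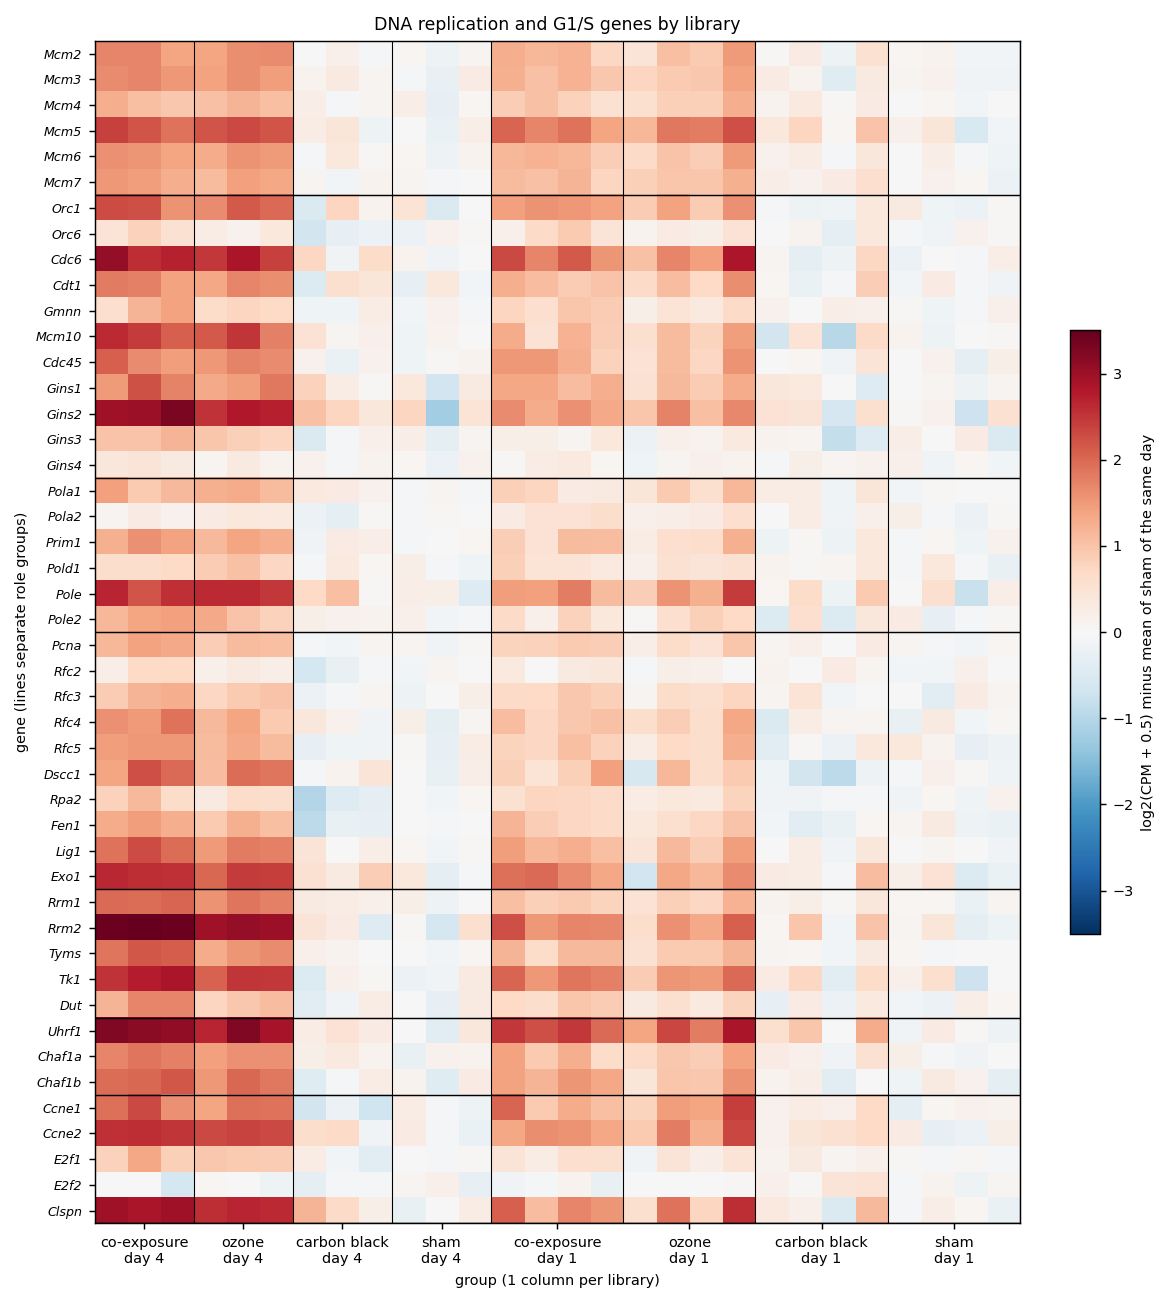
Heat map of the 46 genes (rows, grouped by role) in the 28 libraries (columns, grouped by exposure and day). Colour gives log2 of CPM plus 0.5, minus the mean of the sham libraries of the same day. Co-exposed and ozone columns of both days are shifted upward in nearly every row, E2f2 is the flat row, and ozone replicate 1 of day 1 is the palest of its group.

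All 6 helicase subunit genes, Mcm2 to Mcm7, were higher in each of the 4 comparisons, with median log2 fold changes of 1.58 in co-exposed and 1.48 in ozone lungs at day 4, and of 1.12 in co-exposed and 1.05 in ozone lungs at day 1. Mcm5 (chr8:75109569-75128439, plus strand), the subunit that forms a gate in the ring together with Mcm2, had 50.2, 43.9 and 35.8 CPM in co-exposed lungs, 44.2, 47.3 and 44.0 CPM in ozone lungs and 9.14, 7.68 and 11.0 CPM in sham lungs of day 4. Every exposed library was more than 3 times as high as any sham library. At day 1, Mcm5 had 35.5, 28.5, 32.2 and 22.5 CPM in co-exposed lungs, 19.2, 31.4, 29.7 and 41.8 CPM in ozone lungs and 9.52, 11.4, 5.64 and 7.73 CPM in sham lungs. Ozone replicates 1 and 4 were the ends of the exposed range, and neither exposed group met the sham group. The log2 fold change of Mcm5 was 2.21 ± 0.26 in co-exposed and 2.27 ± 0.26 in ozone lungs at day 4, and 1.80 ± 0.23 in co-exposed and 1.84 ± 0.23 in ozone lungs at day 1 (± SE). The highest edgeR adjusted p of the 4 was 1.03e-05.

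Mcm2 had 47.4, 47.4 and 37.4 CPM in co-exposed lungs, 37.5, 44.7 and 45.6 CPM in ozone lungs and 14.8, 12.4 and 15.0 CPM in sham lungs of day 4. Both exposed groups lay clear of sham and overlapped each other. Mcm7, which had the smallest p of the 6, had 65.4, 62.8 and 54.8 CPM in co-exposed lungs, 49.3, 61.4 and 58.8 CPM in ozone lungs and 23.9, 21.4 and 22.2 CPM in sham lungs, a log2 fold change of 1.44 ± 0.13 for co-exposure and 1.33 ± 0.13 for ozone. Mcm3 had 52.0 to 58.9 CPM in co-exposed, 47.8 to 55.6 CPM in ozone and 14.8 to 21.6 CPM in sham lungs of day 4. Mcm4 moved least of the 6, by 1.09 ± 0.15 in co-exposed and 1.08 ± 0.15 in ozone lungs at day 4. Mcm7 overlaps Cops6 and Ap4m1 on the other strand, and no source used here says whether the counting used strand. The same limit holds for other members, among them Orc6, Cdc45, Rfc5, Fen1, Lig1, Tk1, Chaf1a and Ccne2. Over all libraries, Orc6 had 3616 counts and its neighbour Vps35 32028, and Ccne2 had 1294 and its neighbour Ints8 8268.

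Among the 11 genes that license and fire origins, 11 were higher in co-exposed and 9 in ozone lungs at day 4, and 9 in co-exposed and 7 in ozone lungs at day 1. Their median log2 fold changes at day 4 were 1.93 for co-exposure and 1.73 for ozone, and at day 1 1.17 for co-exposure and 1.15 for ozone. Cdc6, the ATPase that loads the helicase with Orc1, had 15.5, 10.8 and 11.7 CPM in co-exposed lungs, 9.94, 13.2 and 9.49 CPM in ozone lungs and 1.56, 1.23 and 1.40 CPM in sham lungs of day 4. All exposed libraries were at least 6 times as high as any sham library, and the log2 fold change was 3.16 ± 0.40 for co-exposure and 2.94 ± 0.40 for ozone. At day 1, Cdc6 had 11.3, 7.27, 10.2 and 6.55 CPM in co-exposed lungs, 4.39, 7.32, 5.95 and 16.5 CPM in ozone lungs and 1.59, 1.93, 1.79 and 2.33 CPM in sham lungs. Ozone replicate 4 stood well above the other 3 of its group, and the exposed groups did not meet sham.

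Cdt1, the partner of Cdc6 in loading, had 16.7, 16.2 and 12.4 CPM in co-exposed lungs, 11.9, 15.6 and 14.7 CPM in ozone lungs and 3.49, 5.84 and 4.08 CPM in sham lungs of day 4. The groups did not overlap sham. Its inhibitor geminin (Gmnn) had 17.7, 27.0 and 31.2 CPM in co-exposed lungs, 18.5, 19.6 and 19.1 CPM in ozone lungs and 10.7, 12.8 and 11.3 CPM in sham lungs, all exposed libraries being above all sham libraries. The log2 fold change of Gmnn was smaller than that of Cdt1, at 1.13 ± 0.17 against 1.77 ± 0.29 for co-exposure and 0.72 ± 0.17 against 1.67 ± 0.29 for ozone; the difference between the genes was not tested. At day 1 Gmnn passed the threshold after co-exposure, at 0.83 ± 0.15, and not after ozone, at 0.44 ± 0.15 (edgeR adjusted p = 0.0573). Part of Cdt1 and of Gins2 overlaps the gene Gm20388, Cdt1 on the same strand, and Gins2 overlaps Gse1 on the other strand.

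The GINS complex, whose 4 subunits join Cdc45 and the Mcm ring in the active helicase, was uneven. Gins2 had 11.5, 11.6 and 14.4 CPM in co-exposed lungs, 8.24, 10.0 and 9.49 CPM in ozone lungs and 2.04, 0.154 and 1.61 CPM in sham lungs of day 4. Sham replicate 2 held the lowest value, under the limit of 3 counts, and all co-exposed libraries were above all ozone libraries. Gins2 changed by 3.22 ± 0.41 for co-exposure and 2.79 ± 0.41 for ozone on the log2 scale. Gins4, in contrast, had 23.9 to 26.0 CPM in co-exposed, 20.3 to 23.5 CPM in ozone and 16.3 to 21.2 CPM in sham lungs of day 4, and passed the threshold only after co-exposure, at 0.38 ± 0.12 (edgeR adjusted p = 0.0146, against 0.329 for ozone). Gins3 passed at day 4 (1.16 for co-exposure and 0.94 for ozone) and not at day 1 (0.22 for co-exposure and 0.12 for ozone). The co-exposure call of Gins4 and the ozone call of Gins3 at day 4 were lost under some alternatives (edgeR adjusted p of up to 0.094). Gins1 passed in all 4. Orc6, the smallest subunit of the origin recognition complex, passed after co-exposure at both days and after ozone at neither, with log2 fold changes of 0.62 and 0.26 at day 4.

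Orc1, the largest subunit of that complex, was close to the detection limit at rest. It had 2.94, 2.84 and 1.58 CPM in co-exposed lungs, 1.70, 2.60 and 2.30 CPM in ozone lungs and 0.481, 0 and 0.215 CPM in sham lungs of day 4. These levels rest on 11 to 22 counts per co-exposed library, 12 to 23 per ozone library and 0 to 4 per sham library. Its fitted log2 fold changes of 3.24 for co-exposure and 3.08 for ozone depend on the prior count and are given as descriptions.

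Of the 6 polymerase and primase genes, 5 were higher in both exposed groups at day 4, and 5 in co-exposed and 4 in ozone lungs at day 1. Pole, the catalytic subunit of polymerase epsilon, had 15.9, 11.4 and 14.5 CPM in co-exposed lungs, 15.2, 15.4 and 13.8 CPM in ozone lungs and 2.53, 2.46 and 1.40 CPM in sham lungs of day 4. Every exposed library was more than 4 times as high as any sham library. Its log2 fold change was 2.72 ± 0.39 for co-exposure and 2.81 ± 0.39 for ozone. Prim1, the primase subunit that makes the RNA primer, had 14.8, 19.3 and 16.8 CPM in co-exposed lungs, 13.6, 16.5 and 15.1 CPM in ozone lungs and 5.65, 5.99 and 6.34 CPM in sham lungs, again without overlap with sham. Its day 1 rise after ozone, 0.77 ± 0.19, fell to 0.53 without ozone replicate 4 (edgeR adjusted p = 0.0683).

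The subunits of polymerase alpha, which extends the primer, parted. Pola1, the catalytic subunit, rose by 1.22 in co-exposed and 1.27 in ozone lungs at day 4. Pola2, its accessory subunit, was at 16.9 to 19.6 CPM in co-exposed, 19.3 to 20.4 CPM in ozone and 15.2 to 16.4 CPM in sham lungs of day 4, with log2 fold changes of 0.19 ± 0.13 and 0.34 ± 0.13 that did not pass the threshold. It did pass after 1 co-exposure, at 0.49 ± 0.12 (edgeR adjusted p = 0.00464), and was the only member called at day 1 and not at day 4 after the same exposure. Pold1, the catalytic subunit of polymerase delta, rose by 0.65 after co-exposure and 0.90 after ozone at day 4, with all co-exposed libraries below all ozone libraries. Its day 1 ozone call was lost under 8 of 13 alternatives.

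All 10 genes of the sliding clamp, its loaders and lagging-strand maturation were higher in co-exposed lungs at day 4 and 9 in ozone lungs, and at day 1 9 were higher after co-exposure and 8 after ozone. Pcna (chr2:132249162-132253314, minus strand), the ring that holds polymerases on DNA, had the highest level per kilobase of exon of the 46 genes in sham lungs. It had 131, 156 and 147 CPM in co-exposed lungs, 107, 126 and 121 CPM in ozone lungs and 62.4, 53.6 and 60.2 CPM in sham lungs of day 4. The 3 groups were fully separated. At day 1 Pcna had 105, 108, 116 and 113 CPM in co-exposed lungs, 72.9, 96.4, 88.4 and 121 CPM in ozone lungs and 65.9, 58.1, 57.9 and 64.8 CPM in sham lungs. Ozone replicates 1 and 4 lay below and above all co-exposed libraries. On the log2 scale Pcna rose by 1.30 ± 0.12 for co-exposure and 1.01 ± 0.12 for ozone at day 4, and 0.84 ± 0.11 for co-exposure and 0.62 ± 0.11 for ozone at day 1. Reads of Pcna can be shared with its pseudogenes, of which Pcna-ps2 held 27 counts over all libraries, against 18190 for Pcna.

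Lig1, the ligase that joins Okazaki fragments, had 52.7, 68.2 and 55.1 CPM in co-exposed lungs, 39.3, 50.1 and 47.6 CPM in ozone lungs and 14.4, 12.8 and 14.1 CPM in sham lungs of day 4. The 3 groups did not overlap, and the log2 fold change was 2.09 ± 0.18 for co-exposure and 1.73 ± 0.18 for ozone. Rpa2, a subunit of the protein that coats single-stranded DNA, moved less, by 0.89 ± 0.16 for co-exposure and 0.54 ± 0.16 for ozone. Its day 4 ozone call was lost without sham replicate 2, ozone replicate 2 or ozone replicate 3 (edgeR adjusted p of up to 0.0735). Its day 1 ozone call, at 0.47 ± 0.14, was lost without sham replicate 1, sham replicate 3 or ozone replicate 4 (edgeR adjusted p of up to 0.162). That call was also lost in the fit without the filter on low counts (edgeR adjusted p = 0.0507).

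The clamp loader shares its small subunits among several complexes. Rfc2, one of them, had 41.9, 58.9 and 57.9 CPM in co-exposed lungs, 40.7, 44.4 and 42.4 CPM in ozone lungs and 33.8, 38.6 and 35.2 CPM in sham lungs of day 4. Both exposed groups lay above sham by a narrow margin, and only co-exposure passed the threshold, at 0.56 ± 0.13 (edgeR adjusted p = 0.00202, against 0.204 for ozone). Rfc3, Rfc4 and Rfc5 were higher in all 4 comparisons, with log2 fold changes at day 4 of 1.16 to 1.75 for co-exposure and 0.91 to 1.22 for ozone. The day 1 ozone call of Rfc3 was lost under 8 of 13 alternatives (edgeR adjusted p of up to 0.134). That of Rfc5 was lost under 1 of 13 (edgeR adjusted p = 0.0695). Rfc4, with 1462 counts over all libraries, overlaps Eif4a2, with 82214, on the other strand. Dscc1, a subunit of the alternative loader, and the exonuclease gene Exo1 were low at rest, with at most 6 and 12 counts in any sham library. The day 1 ozone call of Exo1 was lost under 6 of 13 alternatives, and the day 1 co-exposure call of Dscc1 under 5 of 12.

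The 5 nucleotide-supply genes were all higher in co-exposed and ozone lungs at day 4, by medians of 2.13 and 1.75 on the log2 scale, and at day 1 in 5 and 4 cases, by 1.10 and 0.96. Rrm2 (chr12:24708241-24714146, plus strand), the small subunit of ribonucleotide reductase whose supply limits the enzyme in S phase, had 59.1, 62.8 and 59.0 CPM in co-exposed lungs, 42.3, 45.8 and 43.1 CPM in ozone lungs and 5.17, 3.07 and 7.63 CPM in sham lungs of day 4. Its rise in co-exposed lungs, 3.47 ± 0.34, was the largest of the 46 genes in that comparison, and the ozone value was 3.01 ± 0.34. At day 1 Rrm2 had 29.7, 17.6, 19.9 and 19.7 CPM in co-exposed lungs, 9.11, 18.6, 15.4 and 26.3 CPM in ozone lungs and 6.22, 7.86, 4.48 and 5.03 CPM in sham lungs. Neither exposed group met sham at either day.

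Rrm1 (chr7:102441695-102469771, plus strand), the large subunit of the same enzyme, had 103, 101 and 106 CPM in co-exposed lungs, 77.0, 96.1 and 88.4 CPM in ozone lungs and 29.5, 22.7 and 25.2 CPM in sham lungs of day 4. At day 1 it had 60.0, 51.8, 54.9 and 49.7 CPM in co-exposed lungs, 41.0, 51.3, 48.3 and 67.5 CPM in ozone lungs and 29.9, 30.1, 24.5 and 31.0 CPM in sham lungs. Every day 4 library of an exposed group was above every day 1 library of the same exposure, and Rrm1 had the smallest adjusted p of the 46 genes at day 4 in both comparisons (edgeR adjusted p = 8.28e-11 for co-exposure and 1.55e-09 for ozone). Tyms, the enzyme that makes thymidylate, had 27.9, 34.4 and 33.1 CPM in co-exposed lungs, 18.5, 21.9 and 23.9 CPM in ozone lungs and 7.33, 6.76 and 7.52 CPM in sham lungs of day 4, with the 3 groups apart. Tk1, the salvage enzyme thymidine kinase, had 23.0, 26.6 and 28.5 CPM in co-exposed lungs, 16.5, 22.4 and 21.8 CPM in ozone lungs and 3.01, 3.23 and 4.51 CPM in sham lungs. Its exposed libraries were more than 3 times as high as any sham library.

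The 3 genes of chromatin assembly and maintenance were higher in all 4 comparisons. Uhrf1, which brings the maintenance DNA methyltransferase to newly copied DNA, had 55.1, 51.3 and 50.2 CPM in co-exposed lungs, 36.9, 54.3 and 42.4 CPM in ozone lungs and 5.29, 4.00 and 7.20 CPM in sham lungs of day 4. The lowest exposed library was more than 5 times as high as the highest sham library. At day 1 it had 31.8, 27.1, 31.6 and 22.2 CPM in co-exposed lungs, 14.5, 28.4, 19.5 and 41.1 CPM in ozone lungs and 4.76, 6.53, 5.38 and 4.54 CPM in sham lungs, again without overlap with sham. On the log2 scale Uhrf1 rose by 3.22 ± 0.31 for co-exposure and 2.99 ± 0.31 for ozone at day 4, and 2.41 ± 0.27 for co-exposure and 2.30 ± 0.27 for ozone at day 1. Chaf1a, the large subunit of chromatin assembly factor 1, had 28.7 to 31.8 CPM in co-exposed, 23.4 to 26.6 CPM in ozone and 6.85 to 9.37 CPM in sham lungs of day 4.

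Of the 5 regulators and checkpoint genes, 4 were higher in co-exposed and 4 in ozone lungs at day 4, and 4 in co-exposed and 3 in ozone lungs at day 1. Ccne2, an E-type cyclin that drives G1/S kinase activity, had 14.0, 14.3 and 13.4 CPM in co-exposed lungs, 11.6, 12.2 and 11.8 CPM in ozone lungs and 2.53, 1.84 and 1.61 CPM in sham lungs of day 4, all 3 groups being apart. Ccne1, the other E-type cyclin, had 7.61, 10.1 and 6.05 CPM in co-exposed lungs, 5.11, 7.68 and 7.47 CPM in ozone lungs and 2.04, 1.54 and 1.40 CPM in sham lungs. Ccne2 changed by 2.79 ± 0.30 for co-exposure and 2.57 ± 0.30 for ozone, and Ccne1 by 2.24 ± 0.38 for co-exposure and 2.02 ± 0.38 for ozone, on the log2 scale. Clspn, the adaptor that relays replication stress to the checkpoint kinase, had 15.5 to 16.7 CPM in co-exposed, 12.6 to 13.5 CPM in ozone and 1.32 to 2.15 CPM in sham lungs of day 4.

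E2f1, an activator of G1/S genes, had 22.6, 33.1 and 23.3 CPM in co-exposed lungs, 24.8, 24.7 and 24.0 CPM in ozone lungs and 12.7, 12.3 and 13.2 CPM in sham lungs of day 4, a log2 fold change of 1.04 ± 0.16 for co-exposure and 0.94 ± 0.16 for ozone. At day 1 it passed the threshold after co-exposure, at 0.49 ± 0.14, and not after ozone, at 0.29 ± 0.14 (edgeR adjusted p = 0.195). The co-exposure call at day 1 was lost without co-exposed replicate 3 (edgeR adjusted p = 0.0537). E2f2 (chr4:136172394-136196057, plus strand), a second activator, had 41.2, 41.9 and 26.8 CPM in co-exposed lungs, 43.3, 41.5 and 36.8 CPM in ozone lungs and 44.6, 47.2 and 33.6 CPM in sham lungs of day 4. At day 1 it had 37.4, 39.4, 44.6 and 34.6 CPM in co-exposed lungs, 41.3, 40.8, 41.1 and 42.3 CPM in ozone lungs and 40.1, 44.9, 36.3 and 43.9 CPM in sham lungs. The groups overlapped in every one of these comparisons, and the log2 fold changes were -0.19 and -0.04 at day 4 and -0.08 and 0.00 at day 1 for co-exposure and ozone.

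**Figure D2:**
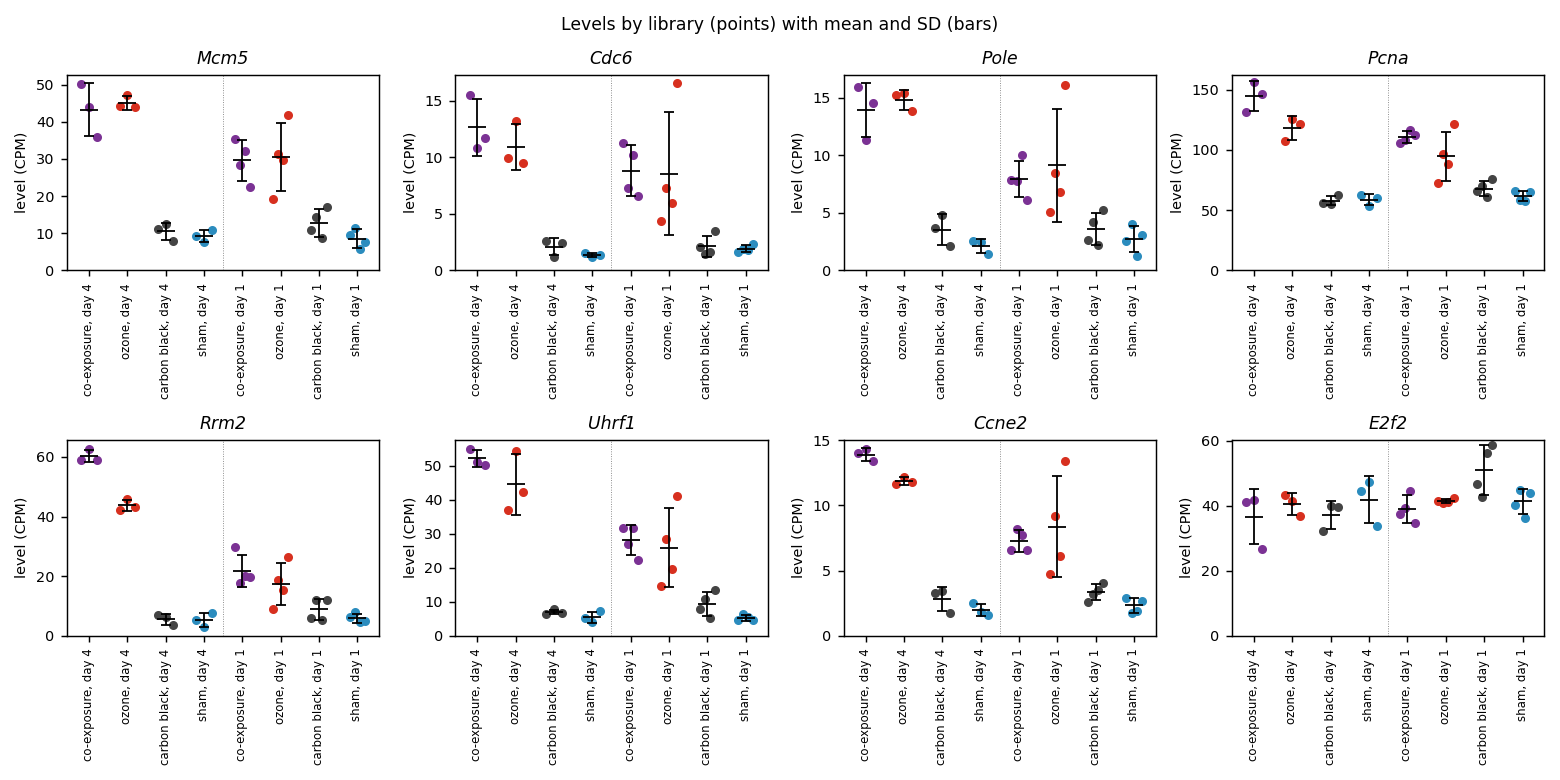
Levels of Mcm5, Cdc6, Pole, Pcna, Rrm2, Uhrf1, Ccne2 and E2f2 in every library (points, CPM), with bars for group mean and SD, from co-exposure on the left to sham on the right within each day. The first 7 genes stand above sham after ozone and co-exposure at both days and E2f2 does not. Mcm5 runs from 35.8 to 50.2 CPM in co-exposed lungs of day 4 and from 7.68 to 11.0 CPM in the sham lungs of that day.

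The size of the change ran against the resting level. Across the 46 genes, the log2 fold change at day 4 and the log2 level in sham libraries of day 1, which did not enter that comparison, had a Pearson correlation of -0.70 (Spearman -0.72) for co-exposure and -0.69 (Spearman -0.69) for ozone. Over the 43 genes that passed the filter in sham libraries alone the Pearson values were -0.66 (Spearman -0.68) for co-exposure and -0.63 (Spearman -0.64) for ozone. With sham levels of day 4 and changes at day 1 the Pearson values over the 46 were -0.66 (Spearman -0.65) for co-exposure and -0.63 (Spearman -0.64) for ozone, and over the 43 they were -0.60 (Spearman -0.60) and -0.61 (Spearman -0.63). The genes share libraries and depth and are not independent, and levels here are not divided by length. Per kilobase of exon, Pcna was highest in sham lungs at 25.2 CPM, followed by Gins4 at 13.2 CPM and E2f2 at 8.50 CPM. At the low end were Dscc1 at 0.141 CPM, Exo1 at 0.126 CPM and Orc1 at 0.0663 CPM per kilobase. Mcm4 ranked 4 of 46 at 6.99 CPM per kilobase, Mcm5 ranked 19 at 2.22 CPM and Mcm10 ranked 43 at 0.219 CPM.

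**Figure D3:**
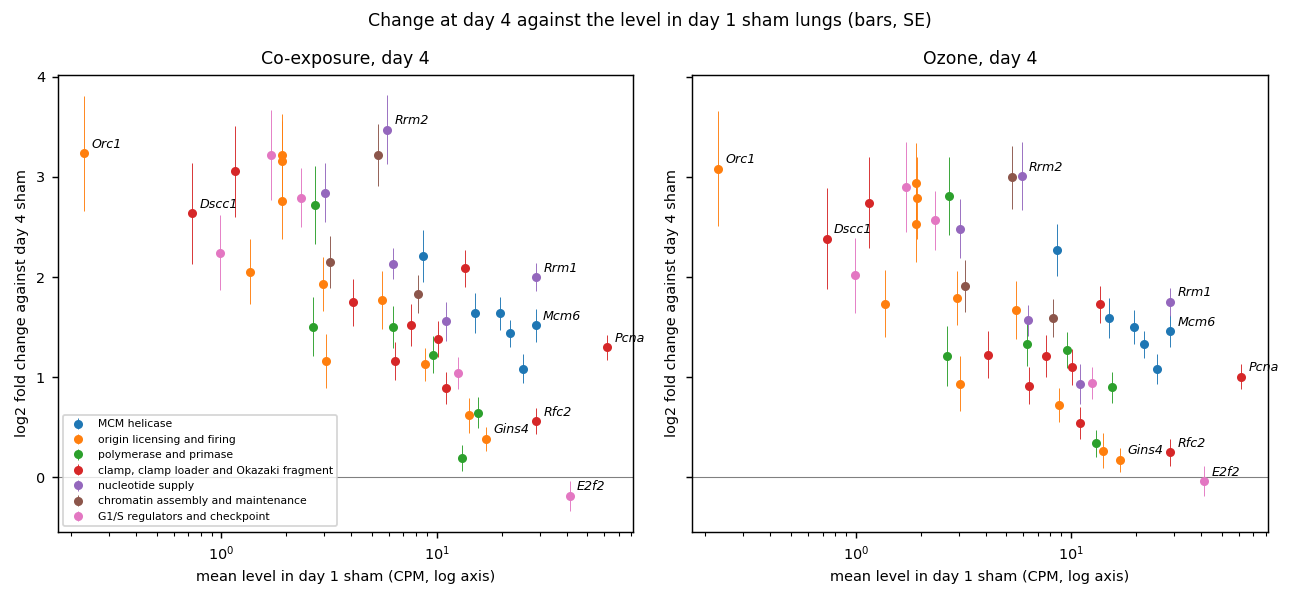
Change at day 4 (vertical axis, log2 fold change against sham of day 4, bars give SE) against the mean level in sham libraries of day 1 (horizontal axis, CPM on a log axis) for the 46 genes, coloured by role, with co-exposure left and ozone right. Points fall toward the right (Pearson -0.70 and -0.69), with Pcna, Rrm1 and the Mcm genes above the trend and E2f2 at the bottom.

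Carbon black alone gave no call among these genes. At day 4, 0 of 46 passed edgeR's test and 0 passed DESeq2's, with 2 under an unadjusted edgeR p of 0.05, where 0.208% of all genes were called. Both had values below 0, Rpa2 at -0.57 ± 0.17 (edgeR adjusted p = 0.127) and Fen1 at -0.45 ± 0.19. Rpa2 had 5.84, 8.88 and 9.73 CPM in carbon black lungs and 12.5, 11.5 and 12.9 CPM in sham lungs, and it passed the threshold without carbon black replicate 3, which made the count 1, or 2.17% of the 46, where 4.27% of all genes were called. Fen1, the nuclease that trims Okazaki fragments, had 5.84, 9.56 and 9.32 CPM in carbon black lungs and 11.7, 11.2 and 11.5 CPM in sham lungs. All carbon black libraries were below all sham libraries for these genes and for Ccne1, 3 of the 46, against 7.65% of all genes.

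At day 1, 0 of 46 passed edgeR's test and 0 passed DESeq2's after carbon black, with 4 under an unadjusted edgeR p of 0.05, where 1.66% of all genes were called. The 4 were Uhrf1 at 0.82 ± 0.29 (edgeR adjusted p = 0.239), Mcm7 at 0.33 ± 0.12, Mcm5 at 0.58 ± 0.24 and E2f2 at 0.30 ± 0.13. Uhrf1 had 7.93, 10.7, 5.28 and 13.6 CPM in carbon black lungs and 4.76, 6.53, 5.38 and 4.54 CPM in sham lungs, with replicate 3 inside the sham range and replicate 4 highest. Without carbon black replicate 4, none of the 46 was under an unadjusted p of 0.05. The median log2 fold change of the members was 0.11 at day 4 and 0.14 at day 1. Neutrophil markers were higher in the same day 1 lungs, with all 6 past the threshold. Their sums were 109.7 to 4384 CPM in carbon black lungs and 37.4 to 223 CPM in sham lungs, which overlap.

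Adding carbon black to ozone changed no member past the threshold. At day 4, 0 of 46 passed edgeR's test between co-exposed and ozone lungs, with 9 under an unadjusted p of 0.05, where 0.0% of all genes were called. DESeq2 called 2, Tyms and Dut, a share of 4.35% where it called 3.74% of all genes. With the replicate number as a block edgeR called the same pair, where 1.19% of all genes were called. Without co-exposed replicate 1, edgeR called 5 (Gmnn, Pcna, Rfc2, Tyms and Dut), a share of 10.9% that was below the 18.6% of all genes called in that fit. Tyms differed by 0.57 ± 0.15 (edgeR adjusted p = 0.0726) and Dut, the enzyme that keeps uracil out of DNA, by 0.63 ± 0.19 (edgeR adjusted p = 0.0957). Dut had 26.6, 38.5 and 38.6 CPM in co-exposed lungs and 19.6, 22.4 and 25.0 CPM in ozone lungs, without overlap. Of the 46 genes, 18 had all co-exposed libraries above all ozone libraries, against 9.57% of all genes, and 1, Pold1, had them below, against 9.75%. At day 1, 0 of 46 passed edgeR's test and 0 passed DESeq2's, with 2 under an unadjusted p of 0.05, where 0.0% of all genes were called. The median log2 difference between co-exposed and ozone lungs was 0.24 at day 4 and 0.12 at day 1.

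No member passed the test between sham lungs of the 2 days. In sham of day 4 against sham of day 1, 0 of 46 passed edgeR's test and 0 passed DESeq2's, with 3 under an unadjusted edgeR p of 0.05 (Rfc2 at 0.31 ± 0.13, Gmnn at 0.39 ± 0.16 and Pola2 at 0.28 ± 0.13), where 0.0% of all genes were called.

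The change against sham was larger at day 4 than at day 1 in most members, and the difference passed the threshold in few. For co-exposure, the day 4 change exceeded the day 1 change in 44 of 46 genes by a median of 0.62 on the log2 scale. Of the 46, 5 passed edgeR's test of that difference, all of them higher. That share, 10.9%, was close to the 10.2% of all genes called in either direction and above the 5.44% called higher. For ozone it did so in 43 genes by a median of 0.53, and 1 passed, where 4.24% of all genes were called and 2.36% called higher. For carbon black 0 of 46 passed edgeR's test and 0 DESeq2's, with 3 under an unadjusted edgeR p of 0.05, where 0.094% were called. Compared directly, all co-exposed libraries of day 4 were above all co-exposed libraries of day 1 in 36 of 46 genes, against 14.5% of all genes. All ozone libraries of day 4 were above all those of day 1 in 21, against 18.5%. Across the genes, changes at day 1 and day 4 had a Pearson correlation of 0.91 for co-exposure and 0.92 for ozone, each day with its own sham libraries.

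Rrm1 was the gene past the threshold for both exposures. Its change at day 4 exceeded that at day 1 by 1.09 ± 0.18 for co-exposure (edgeR adjusted p = 0.000303) and by 0.90 ± 0.18 for ozone (edgeR adjusted p = 0.00392). The other members called for co-exposure were Tyms at 1.04 ± 0.21 (edgeR adjusted p = 0.00225), Rrm2 at 1.58 ± 0.45 (edgeR adjusted p = 0.0264), Lig1 at 0.81 ± 0.24 (edgeR adjusted p = 0.0324) and Mcm10 at 1.60 ± 0.50 (edgeR adjusted p = 0.041). Mcm10, which helps activate the loaded helicase, had 10.9, 9.80 and 7.48 CPM in co-exposed lungs of day 4 and 5.38, 2.88, 5.08 and 3.85 CPM in co-exposed lungs of day 1. The day 4 libraries were all higher. Its call on the difference was lost in 10 of 14 fits that left out a library and in the fit without a filter on low counts, with edgeR adjusted p between 0.013 and 0.0918 over the alternatives. Rrm1, Rrm2 and Tyms belong to nucleotide supply. With the 5 calls near the share of all genes, their make-up is no result about that role. Lig1 lost its call in 7 of those 14 fits, and Rrm2 in 3 and in the fit without the filter. Rrm1 and Tyms were called under every left-out library, and the co-exposure count fell to 2 without sham replicate 2 of day 4. It fell to 3 without sham replicate 1 or 2 of day 1, co-exposed replicate 2 or 4 of day 1, or co-exposed replicate 2 of day 4. For ozone, leaving out replicate 4 of day 1 raised the count to 4, with Pcna, Lig1 and Rrm2 added, and leaving out sham replicate 3 of day 4 raised it to 2.

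**Figure D4:**
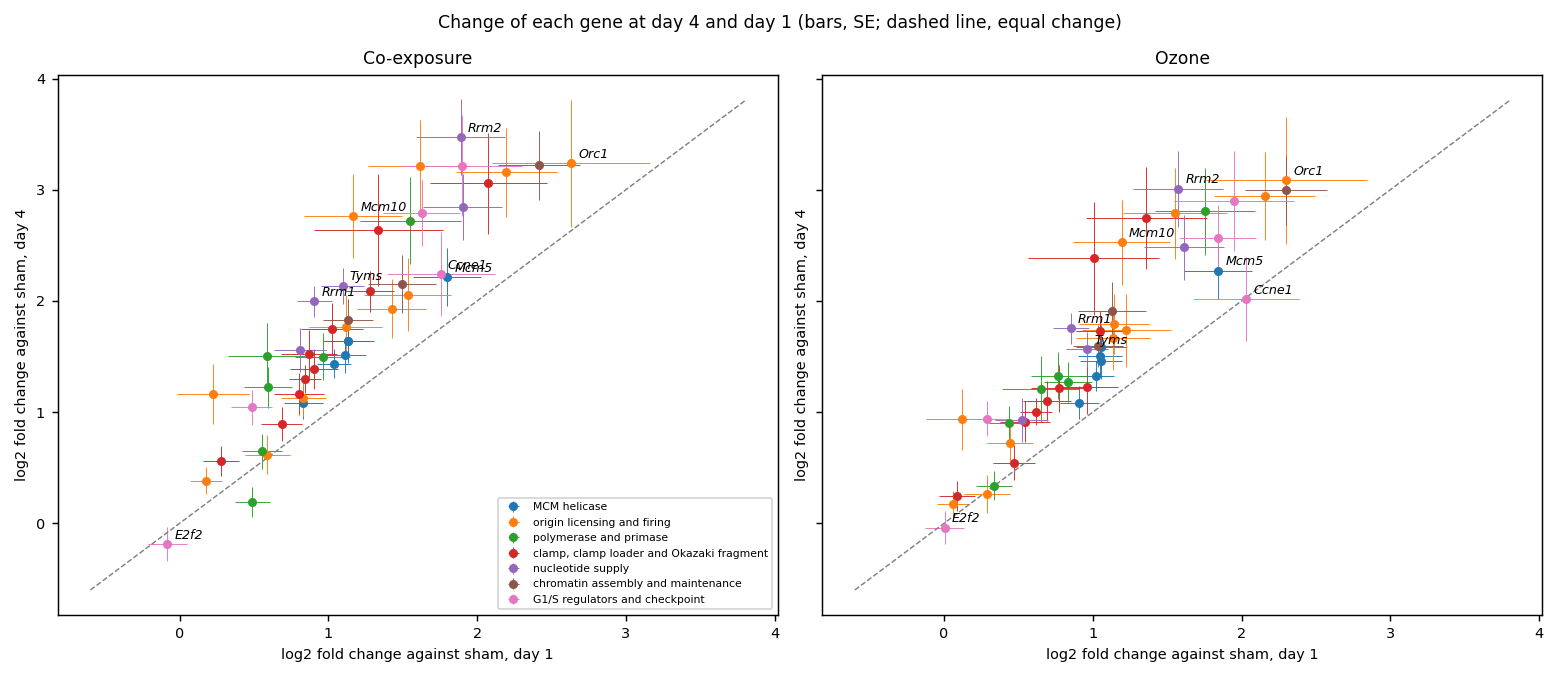
Log2 fold change against sham of the same day for the 46 genes, day 4 on the vertical axis and day 1 on the horizontal axis, with co-exposure left and ozone right, and the line of equal change. In 44 genes for co-exposure and 43 for ozone the point lies above the line. Uhrf1, Cdc6 and Rrm2 are at the upper right and E2f2 is near the origin.

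Genes of the next cell cycle phases showed a much larger difference between days. Of 22 genes of mitosis and G2/M, all 22 were higher after both co-exposure and ozone at day 4, with median log2 fold changes of 3.56 and 3.11, and at day 1 10 were higher after co-exposure and 6 after ozone, with medians of 0.54 and 0.56. Of all genes tested, 17.7% and 11.7% were called higher at day 4, and 10.1% and 6.82% at day 1, in the same order. The difference between days passed edgeR's test in all 22 for both exposures, with medians of 2.66 for co-exposure and 2.34 for ozone, where 10.2% and 4.24% of all genes were called. Without ozone replicate 4, 1 of the 22 was higher after ozone at day 1, where 573 of 14878 genes tested were called higher. Without replicate 1, 8 were, where 892 of 14875 genes were called higher. In these fits the difference between days for ozone passed in 22 and 19, where 3.91% and 2.5% of all genes were called. Cdc20, the activator of the anaphase-promoting complex, had 53.5, 62.0 and 65.5 CPM in co-exposed lungs, 44.4, 47.7 and 43.3 CPM in ozone lungs and 3.13, 3.84 and 3.97 CPM in sham lungs of day 4. At day 1 it had 8.14, 5.45, 5.92 and 5.56 CPM in co-exposed lungs, 5.06, 5.78, 5.53 and 8.27 CPM in ozone lungs and 6.35, 6.38, 5.89 and 3.93 CPM in sham lungs, with all 3 groups overlapping. Cdk1, the mitotic kinase, was the gene among the 4 named from that list that passed after both exposures at day 1, by 1.64 ± 0.28 for co-exposure and 1.39 ± 0.28 for ozone, and its day 4 values were 4.35 ± 0.31 and 3.71 ± 0.31. In median change against sham, mitotic genes thus stood above replication genes at day 4 and below them at day 1, on the same libraries. The lists were not matched for resting level, which ran against the size of the change among the 46. Averaged over the 46 genes, log2(CPM + 0.5) minus its sham mean was 1.63 to 1.75 in co-exposed and 1.35 to 1.58 in ozone libraries of day 4, and 0.93 to 1.14 in co-exposed and 0.44 to 1.32 in ozone libraries of day 1. Over the 22 mitotic genes it was 3.28 to 3.32 in co-exposed and 2.82 to 3.01 in ozone libraries of day 4, and 0.43 to 1.01 in co-exposed and -0.07 to 1.09 in ozone libraries of day 1.

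**Figure D5:**
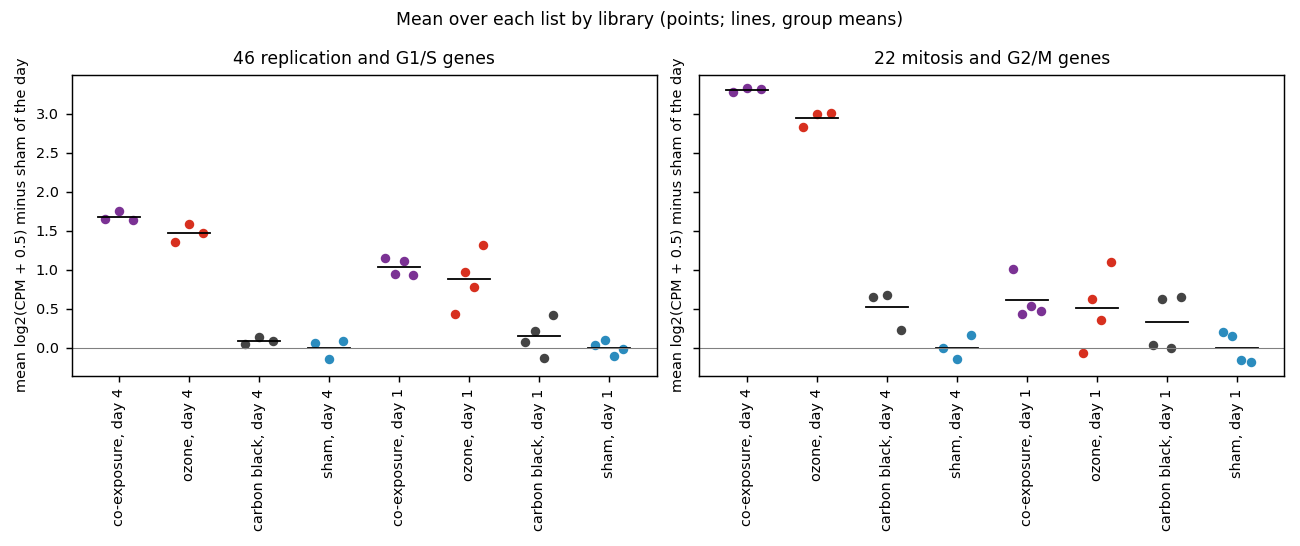
Mean over the 46 replication and G1/S genes (left) and over 22 mitosis and G2/M genes (right) of log2(CPM + 0.5) minus its mean in sham libraries of the same day, one point per library with lines at group means. Replication genes stand above 0.43 in every ozone-containing library, and mitotic genes stand above 2.8 in the day 4 libraries and at or below 1.09 in the day 1 libraries of the same exposures.

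Neighbouring gene lists moved in part. Over all genes tested, 17.7% were called higher after co-exposure and 11.7% after ozone at day 4, and 10.1% and 6.82% at day 1. Of 31 other replication factors, 23 were higher in co-exposed and 16 in ozone lungs at day 4, and 16 in co-exposed and 9 in ozone lungs at day 1, with medians of 0.65 and 0.45 at day 4. Dbf4, the activating subunit of the kinase that fires origins, rose by 1.80 ± 0.19 for co-exposure and 1.50 ± 0.19 for ozone at day 4, and Prim2, the partner of Prim1, by 1.51 ± 0.22 and 1.40 ± 0.22. Of 19 other S-phase chromatin and nucleotide genes, 18 were higher in co-exposed and 17 in ozone lungs at day 4, and 16 and 12 at day 1. Dtl, which marks Cdt1 for destruction in S phase, rose by 3.35 ± 0.34 for co-exposure and 3.09 ± 0.34 for ozone at day 4, and by 2.24 ± 0.30 and 2.29 ± 0.29 at day 1. Asf1b, a histone chaperone, rose by 3.00 ± 0.30 and 2.53 ± 0.30 at day 4.

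Regulators upstream of S phase were counted in 3 further lists. Over all genes tested, 34.1% were called after co-exposure and 20.8% after ozone at day 4, and 19.2% and 11.5% at day 1. In lists this small, counts near these shares are no result about the list. Among 7 genes of D-type cyclins, their kinases and Cdc25a, 5 were higher and none lower in co-exposed lungs at day 4, and 4 were higher and 1 lower in ozone lungs. At day 1, 4 were higher and 2 lower in co-exposed lungs and 1 was higher and 1 lower in ozone lungs. Ccnd1, the D-type cyclin that relays growth signals to the retinoblastoma protein, had 483, 492 and 447 CPM in co-exposed lungs, 460.0, 507 and 483 CPM in ozone lungs and 319, 279 and 282 CPM in sham lungs of day 4, and all exposed libraries were above sham. Cdk4, its kinase, rose by 0.55 ± 0.09 for co-exposure and 0.38 ± 0.09 for ozone at day 4. Cdk6, another such kinase, was lower at day 1 after co-exposure, at -0.45 ± 0.10 (edgeR adjusted p = 0.00278). After ozone at day 1 it was at -0.23 ± 0.10 and did not pass. Among 11 genes of the retinoblastoma and E2F families outside the 46, 5 were higher in both at day 4 and 3 in both at day 1, and none was lower. E2f8 and E2f7, repressors that shut off G1/S genes later in S phase, rose by 3.18 ± 0.33 and 2.82 ± 0.34 in co-exposed and by 2.72 ± 0.34 and 2.49 ± 0.34 in ozone lungs at day 4. Among 6 tested inhibitors of cyclin-dependent kinases, 2 were higher and 1 lower in co-exposed lungs at day 4, and 1 was higher and 1 lower in ozone lungs. Those higher in co-exposed lungs were Cdkn2d at 0.74 ± 0.18 and Cdkn2c at 0.67 ± 0.18, inhibitors of the kinases of D-type cyclins, and Cdkn2c was the higher one in ozone lungs, at 0.58 ± 0.18. The lower one was Cdkn1b, which holds cyclin E kinase in check in resting cells, by -0.32 ± 0.11 for co-exposure and -0.44 ± 0.11 for ozone, and it was also lower at day 1 by -0.29 ± 0.10 and -0.32 ± 0.10. Cdkn1c was higher at day 1 after co-exposure, at 0.51 ± 0.17.

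Other cell types moved with the same exposures, and their part in the replication result was not tested. Over all genes tested, 34.1% were called after co-exposure and 20.8% after ozone at day 4, and 19.2% and 11.5% at day 1. At day 4 lung epithelium markers summed to 34856 to 62319 CPM in co-exposed and 37205 to 41561 CPM in ozone lungs. In sham lungs of that day they summed to 59070 to 72620 CPM, above all ozone libraries. At day 1 the sums were 45474 to 77075 CPM in co-exposed, 40259 to 50852 CPM in ozone and 44990 to 56768 CPM in sham. The 6 markers of T and NK cells summed to 15.4 to 20.3 CPM in co-exposed, 20.4 to 26.2 CPM in ozone and 41.8 to 42.3 CPM in sham lungs of day 4. At day 1 they summed to 11.7 to 20.4 CPM in co-exposed, 18.1 to 26.4 CPM in ozone and 36.6 to 57.4 CPM in sham lungs, and all 6 were lower past the threshold in both exposed groups. The 7 monocyte and macrophage markers summed to 669 to 1714 CPM in co-exposed, 1205 to 1535 CPM in ozone and 432 to 638 CPM in sham lungs of day 4, with 4 higher in each exposed group. At day 1 they summed to 456 to 818 CPM in co-exposed, 861 to 1071 CPM in ozone and 716 to 829 CPM in sham lungs, with none higher and 2 lower after co-exposure and 3 higher and none lower after ozone. The 5 endothelial markers summed to 693 to 1319 CPM in co-exposed, 1385 to 1443 CPM in ozone and 1764 to 2322 CPM in sham lungs of day 4, with 4 lower after co-exposure and 3 after ozone. At day 1 they summed to 1352 to 1961 CPM in co-exposed, 1565 to 1942 CPM in ozone and 2247 to 2488 CPM in sham lungs, again with 4 lower after co-exposure and 3 after ozone. The 5 markers of B and plasma cells summed to 33.8 to 87.4 CPM in co-exposed, 49.1 to 73.0 CPM in ozone and 126 to 348 CPM in sham lungs of day 4, with 4 lower after co-exposure and 3 after ozone. At day 1 they summed to 33.6 to 64.8 CPM in co-exposed, 37.1 to 75.8 CPM in ozone and 46.6 to 325 CPM in sham lungs, with 4 lower after co-exposure and 1 after ozone. The endothelial sums of both exposed groups lay below sham at both days, and those of B and plasma cells did so at day 4 and overlapped sham at day 1. The 6 erythroid markers summed to 2199 to 3727 CPM in co-exposed, 2805 to 5122 CPM in ozone and 6237 to 16961 CPM in sham lungs of day 4, with 5 lower after co-exposure and 3 after ozone. At day 1 the sums were 7864 to 8232 CPM in co-exposed, 6477 to 9486 CPM in ozone and 5469 to 7271 CPM in sham. Co-exposed erythroid sums of day 1 thus all lay above sham, and ozone sums overlapped sham. Of the thymocyte markers, Rag2 was at 0 in every library and the 6 genes summed to at most 9.09 CPM in any library. Neutrophil markers summed to 125 to 265 CPM in co-exposed, 81.8 to 127 CPM in ozone and 57.0 to 96.5 CPM in sham lungs of day 4. At day 1 their sums were 20.3 to 45.2 CPM in co-exposed, 30.0 to 53.1 CPM in ozone and 37.4 to 223 CPM in sham. Of the neutrophil precursor markers, Elane averaged at most 0.109 CPM and Mpo at most 0.223 CPM in any group, and Ltf, which lung epithelium also makes, made up most of the sum.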

How the data were processed

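Per the labels, the authors sequenced stranded poly(A) libraries (51 bp paired-end reads) and quantified them with Salmon 1.1.0; the submitters' processing notes also name mm10, R 3.6.3 and DESeq2. The authors deposited 1 table of estimated counts by gene, unnormalized. Of its values 17.7% were not whole, and all were rounded here. Salmon splits reads shared between similar transcripts by an estimate. Symbols and 1-based coordinates came from GENCODE M21 (GRCm38, the assembly of mm10), which named 35505 of 35880 identifiers.

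All 28 libraries, grouped by title, entered a single edgeR 4.0.16 quasi-likelihood fit (R 4.3.3, robust, TMM, filterByExpr with a minimum count of 10), with 1 mean for each of the groups. It kept 14887 genes and 99.9% of counts, left 20 residual degrees of freedom and gave a common biological coefficient of variation of 15.7%. Of 12 comparisons, 9 were pairwise and 3 compared an exposure's change between days. The p-values were adjusted by Benjamini-Hochberg across the 14887 genes. SE is the size of the log2 fold change divided by the square root of F. The script was tested on simulated data. Alternatives were DESeq2 1.42.0, median-of-ratios scaling in edgeR, a fit without the filter, a fit on the compared groups only, the replicate number as a block, and each library left out; the relation of level and change over 43 genes was added after seeing the data.

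The members, role groups and lists were chosen with earlier results of these data known. Named members were, per role group, the pair with the smallest p against sham in the ozone-containing groups, the smallest p in each comparison, and 10 preset genes; Mcm4, Mcm6, Mcm10, Orc1, Orc6, Gins1, Gins3, Gins4, Pola1, Pola2, Pold1, Rfc3 to Rfc5, Dscc1, Exo1, Fen1 and Dut were added after their values were seen. Same-numbered libraries had deviation correlations from -0.25 to 0.37. All 3 exceeded 0.1 only for co-exposure against sham at day 4, where the block gave 44 calls, as without it.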

Additional observations from a re-analysis of the deposited data

Results flagged for a closer look

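In groups of 4 libraries, 4 of 100 pairs of a named member and a group had 1 library far from the other 3 by Dixon's test, and chance gives about 5%. Gins2 was at 1.03 CPM in carbon black replicate 3 of day 1, below the others at 2.68 to 2.89 CPM. Tyms was at 10.2 CPM in co-exposed replicate 2 of day 1, below 14.2 to 14.8 CPM. Rpa2 was at 19.2 CPM in ozone replicate 4 of day 1, above 13.3 to 14.3 CPM, in the library that was highest in 41 of the 46 genes. Cdt1 was at 6.82 CPM in sham replicate 2 of day 1, above 5.03 to 5.25 CPM.

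The change against sham differed between day 4 and day 1, by edgeR's test of the difference, in 1 member for ozone (Rrm1, 0.90 on the log2 scale) and in 5 for co-exposure (Mcm10 1.60, Rrm2 1.58, Rrm1 1.09, Tyms 1.04 and Lig1 0.81). At day 4 all co-exposed and all ozone libraries were above all sham libraries in each of these 5 genes. Over all genes, 20.7% did so for co-exposure and 22.5% for ozone. The co-exposed and sham libraries also entered the test that chose these genes, so their separation is a description only.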

How the results depend on the processing

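Counts of members called against sham stayed within 1.5 times for the 4 ozone-containing comparisons under every alternative, at 43 to 44 for co-exposure and 39 to 42 for ozone at day 4, and 38 to 42 for co-exposure and 28 to 37 for ozone at day 1, the lowest of these without ozone replicate 4. No alternative turned the direction of a member's call. Carbon black at day 1, co-exposure against ozone at day 1, sham between days and the carbon black difference between days gave 0 under every alternative. The remaining counts moved. For co-exposure against ozone at day 4 (0 as reported), DESeq2 and the replicate block each gave 2, and leaving out a library gave 0 to 5, the highest without co-exposed replicate 1. For the ozone difference between days (1 as reported), DESeq2 gave 2, the compared groups alone 3, and leaving out a library 1 to 4. For the co-exposure difference between days (5 as reported), no filter gave 3, the compared groups alone 8, and leaving out a library 2 to 7. For carbon black at day 4 (0 as reported), leaving out a library gave 0 to 1. The cause of these shifts was not tested. The replicate block changed no other count by more than 1.5 times. Of 96 calls of the 25 members chosen by rule, 6 lost the threshold under at least 1 alternative, namely Prim1 and Rpa2 for ozone at day 1, Rpa2 for ozone at day 4, E2f1 for co-exposure at day 1, and Lig1 and Rrm2 for the co-exposure difference between days. Of 71 calls of the other members, 10 did so, among them Mcm10 for the co-exposure difference between days. At 5.14 M to 9.72 M counts, Orc1, Dscc1 and Exo1 rest on few counts in sham, and their fold changes are imprecise.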
